A study of Mus musculus with 2 samples.

Results

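The genes described are Dppa2, Dppa3, Dppa4 and Dppa5a, 4 members of the developmental pluripotency-associated (Dppa) group, of 27998 genes in the count matrices. They were chosen by name, not by a measured value. All 4 were detected in both libraries and passed the filter on low values, a mean of at least 10 CPM (UMIs per 1000000 UMIs), in every comparison below.

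The Dppa genes share a name for their expression in pluripotent cells and the germ line, and they do not form 1 protein family. Dppa2 and Dppa4 are nuclear proteins with a SAP domain that bind each other and chromatin, and in embryonic stem cells they act upstream of Dux, Zscan4 and other genes of the 2-cell embryo. Dppa3 (Stella, PGC7) protects the maternal genome against loss of DNA methylation in the zygote, limits the maintenance factor Uhrf1, and is known for uneven expression among stem cells grown in serum. Dppa5a (Esg1) is an RNA-binding protein with a KH domain that is abundant in pluripotent cells.

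The cells were mouse induced pluripotent stem cells (iPSCs, somatic cells returned to pluripotency by reprogramming). The knockout cells were SRFΔ/Δ, with both alleles of Srf deleted. The wild-type cells were SRFf/f, which carry the floxed Srf alleles without the deletion. Serum response factor (SRF) is the transcription factor that Srf encodes. Both were grown in medium with serum, and the labels name no treatment, clone number, sex or passage. Each genotype was 1 droplet library from 10x Genomics Chromium. The values are therefore given without a test between genotypes, and each 95% interval covers counting error only, not the spread between cultures, clones or preparations. Genotype and library cannot be told apart.

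The knockout library held 1073 barcodes with 22277996 UMIs (unique molecular identifiers, 1 per captured RNA molecule), and the wild-type library held 954 with 24005849. After the filters, 970 knockout and 895 wild-type cells were analysed, with a median of 21448 and 26612 UMIs per cell, and 2 barcodes occurred in both libraries. Srf had 3 UMIs in the knockout cells (0.143 CPM) and 201 in the wild-type cells (8.65 CPM), which matched the labels. The fibroblast-like cells that were left out had similar Srf levels in the 2 libraries, 21.03 and 22.8 CPM. All 12 listed pluripotency markers passed the filter on low values, and their summed level was 3419 CPM in the knockout against 3768 in the wild type. Of 12 primitive endoderm markers, whose summed level was 811 CPM in the knockout against 109 in the wild type, none was at 0 in either library. The 12 fibroblast markers summed to 79.2 and 76.0 CPM with Lum at 0 in both, the 10 macrophage markers to 139 and 59.5 with none at 0, and the 8 trophectoderm markers to 56.8 and 92.0 with Elf5 at 0 in both. The part of these other cell types in the Dppa results was not tested beyond the subsets given below.

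Over all analysed knockout cells, Dppa3 and Dppa5a were lower than in wild-type cells, Dppa2 was higher and Dppa4 was close to equal. Levels are summed UMIs per 1000000 UMIs of the summed cells (CPM), and log2 ratios are knockout over wild type with 0.5 counts added to each sum. The libraries also differed in make-up, and its part in these ratios was not tested. Of the knockout cells 243 of 970 (25.1%) had under 1% of their UMIs from mitochondrial genes, and their median was 8625 UMIs. In the wild type this held for 16 of 895 cells (1.79%). Few cells lay near that limit, with 17 knockout cells within 0.2 percentage points below it and 11 above.

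Dppa2, the chromatin-bound partner of Dppa4, had 1811 UMIs in the knockout, 86.5 CPM (95% Poisson interval 82.5 to 90.6). In the wild type it had 1269 UMIs, 54.6 CPM (51.6 to 57.7). The log2 ratio was 0.66 (95% interval 0.56 to 0.77), and 217 of 6468 genes had a higher one. Dppa2 was the member that was higher in the knockout by more than 1.5-fold. Over all genes that passed the filter, 4.76% were higher past 1.5-fold and 2.6% were lower.

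Dppa4 had 2138 UMIs in the knockout, 102 CPM (97.8 to 107). It had 2184 UMIs in the wild type, 94.0 CPM (90.1 to 98.0). Its log2 ratio of 0.12 (0.03 to 0.21) lay near the median of all genes, which was 0.07. Dppa4 was thus nearer to equal between the libraries than its partner Dppa2.

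Dppa3 had 679 UMIs in the knockout, 32.4 CPM (30.03 to 34.9). It had 2792 in the wild type, 120.1 CPM (115.7 to 124.7). The log2 ratio was -1.89 (-2.01 to -1.77), a level 3.70 times as high in the wild type as in the knockout. Of the 6468 genes, 13 had a lower ratio. Dppa3 was the member that was lower by more than 1.5-fold in the comparison of all cells.

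Dppa5a, the most deeply counted member, had 148762 UMIs in the knockout against 238668 in the wild type. Its levels were 7103 CPM (7067 to 7139) and 10270.0 CPM (10229 to 10311). The log2 ratio was -0.53 (-0.54 to -0.52), and 223 genes had a lower one. The wild-type level was 1.45 times the knockout level.

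Another scaling shifted the log2 ratio of every gene alike, and with it which members lay past 1.5-fold. With total counts, 168 genes were lower and 308 higher past 1.5-fold. With TMM factors these were 241 and 224, and with median-of-ratios factors 263 and 214. Dppa2 had a log2 ratio of 0.59 with TMM and 0.582 with median of ratios, where it no longer lay past 1.5-fold. Dppa5a lay past it under both, at -0.60 and -0.61. Dppa3 lay past it under all 3 scalings, and Dppa4 under none.

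**Figure D1:**
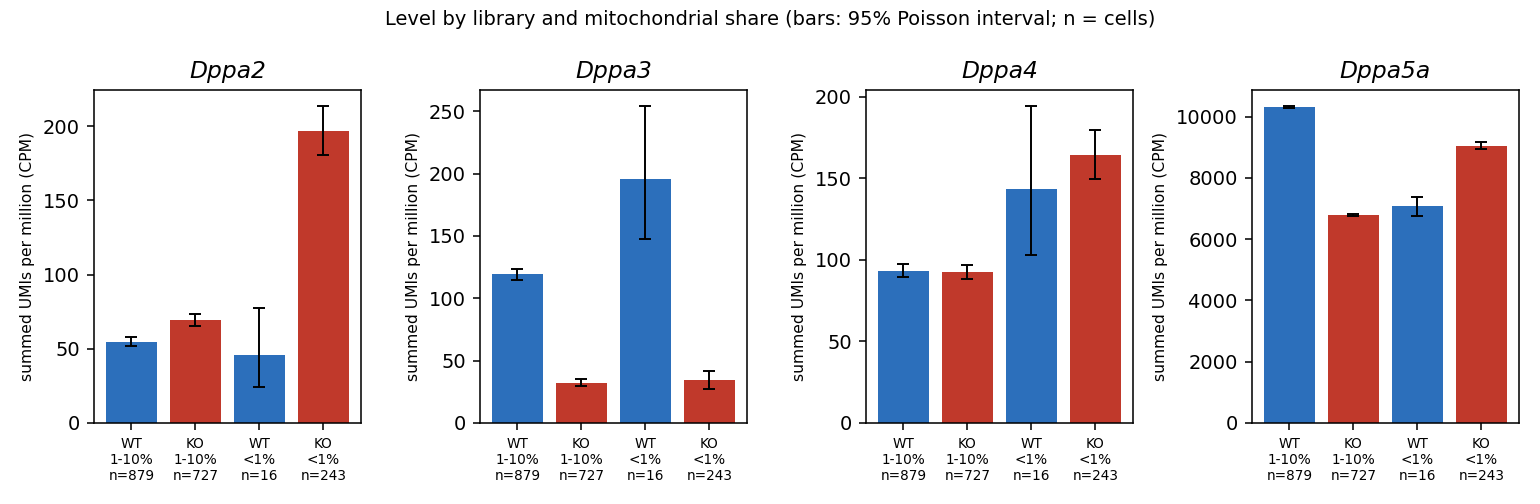
Level of each gene (y axis, summed UMIs per 1000000, CPM, starting at 0) in wild-type (blue) and knockout (red) cells with 1 to 10% or under 1% mitochondrial UMIs. Bars carry 95% Poisson intervals and n is the number of cells; in cells with 1 to 10% the knockout Dppa3 bar stands at 32.2 against 119 CPM, and the knockout Dppa2 bar is highest, at 197 CPM, in cells under 1%.

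In the cells with 1 to 10% mitochondrial UMIs, 727 knockout and 879 wild-type cells, Dppa3 and Dppa5a were lower in the knockout and the difference in Dppa2 was smaller. Dppa3 was at 32.2 CPM in the knockout against 119 in the wild type, a log2 ratio of -1.89 (-2.02 to -1.76). Dppa5a was at 6799 and 10310 CPM, a log2 ratio of -0.60 (-0.61 to -0.59). Dppa2 was at 69.4 and 54.7 CPM, a log2 ratio of 0.34 (0.23 to 0.46). Dppa4 was at 92.4 and 93.4 CPM, and its log2 ratio of -0.01 had an interval from -0.11 to 0.08. In this range 2 of the 4 members, Dppa3 and Dppa5a, were lower past 1.5-fold, beside 2.6% of 6549 genes, and no member was higher past it, beside 7.04%.

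In the cells under 1%, the wild-type values rest on 16 cells, and the intervals cover counting error only, not the spread between so few cells. Dppa2 had 554 UMIs in the knockout (197 CPM) and 13 in the wild type (45.4 CPM), a log2 ratio of 2.06 (1.33 to 3.03). Dppa3 had 96 and 56 UMIs, or 34.1 and 196 CPM, a log2 ratio of -2.53 (-3.01 to -2.02). Dppa4 had 463 and 41 UMIs, or 164 and 143 CPM, and the interval of its ratio ran from -0.27 to 0.69. Dppa5a was at 9056 CPM in the knockout against 7073 in the wild type, a log2 ratio of 0.36 (0.29 to 0.42), but 3 wild-type cells with 0.5 to 1% carried this order. Under 0.5%, a limit chosen after seeing the data, Dppa5a was at 9463 CPM in 196 knockout cells against 9338 CPM in 13 of the wild type, a log2 ratio of 0.02 (-0.05 to 0.09). There the log2 ratios were 1.88 (1.09 to 2.96) for Dppa2, -3.00 (-3.55 to -2.43) for Dppa3 and 0.01 (-0.48 to 0.58) for Dppa4.

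Within the knockout library, Dppa2 and Dppa4 were higher in cells under 1% than in cells with 1 to 10% mitochondrial UMIs, and Dppa3 was not. Dppa2 was at 197 CPM (181 to 214) against 69.4 (65.6 to 73.3), a log2 ratio of 1.504 (1.36 to 1.65). Only 8 of 6035 genes had a higher ratio between these cells. They were Psma8, Obox6, Med21, Kpna2, Hpdl, Rpp40, Elp4 and Acot9, named here after their values were seen, with log2 ratios from 1.51 for Acot9 to 1.76 for Psma8. Dppa4 was at 164 CPM (150 to 180) against 92.4 (88.0 to 96.9), a log2 ratio of 0.83 (0.68 to 0.98), with 544 genes higher. Dppa5a was at 9056 against 6799 CPM, a log2 ratio of 0.41 (0.39 to 0.43). Dppa3 was at 34.1 against 32.2 CPM, and the interval of its log2 ratio ran from -0.24 to 0.40. Past 1.5-fold, 2 of the 4 members, Dppa2 and Dppa4, were higher in the cells under 1%, beside 17.4% of all genes tested, and none was lower, beside 33.7%.

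Other values moved with the mitochondrial share in these knockout cells, and their part in the Dppa2 and Dppa4 levels was not tested. Malat1, a nuclear noncoding RNA, was at 1471 CPM under 1% and at 8492 CPM with 1 to 10%. Nanog was at 149 against 62.6 CPM and Pou5f1 at 1083 against 714 CPM, both core pluripotency factors. Of the 7 listed core factors, 3 were higher and 4 lower in the cells under 1%, with a median log2 ratio of -0.89. Past 1.5-fold, 2 were higher, beside 17.4% of all genes tested, and 4 were lower, beside 33.7%. The cells under 1% also had fewer UMIs. Among cells with fewer than 15000 UMIs, Dppa2 was at 215 CPM in 188 cells under 1% and at 97.1 CPM in 114 cells with 1 to 10%, a log2 ratio of 1.14 (0.82 to 1.48). Among cells with at least 15000 UMIs the Dppa2 levels were 176 CPM in 55 cells and 67.6 CPM in 613, a log2 ratio of 1.38 (1.17 to 1.58). For Dppa4 these log2 ratios were 0.59 (0.28 to 0.92) and 0.76 (0.54 to 0.97).

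Along finer ranges of the mitochondrial share, knockout Dppa2 stood at 210 CPM in 150 cells below 0.25%, at 202 CPM from 0.25 to 0.5%, at 157 CPM from 0.5 to 1% and at 91.3 CPM from 1 to 2%. Above 2% it lay between 61.9 and 75.1 CPM. Knockout Dppa4 went from 177 CPM in the lowest range to 82.4 CPM in the highest. Knockout Dppa3 lay between 24.0 and 55.0 CPM in all 8 ranges, with its highest values from 1 to 3%. Wild-type Dppa3 lay between 93.9 and 139 CPM in the 5 ranges above 1%. These are summed levels and not the range of single cells. The wild-type ranges under 1% rest on 9, 4 and 3 cells. The 3 wild-type cells from 0.5 to 1% had Dppa5a at 1449 CPM, against 10827 in the 9 cells below 0.25%.

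**Figure D2:**
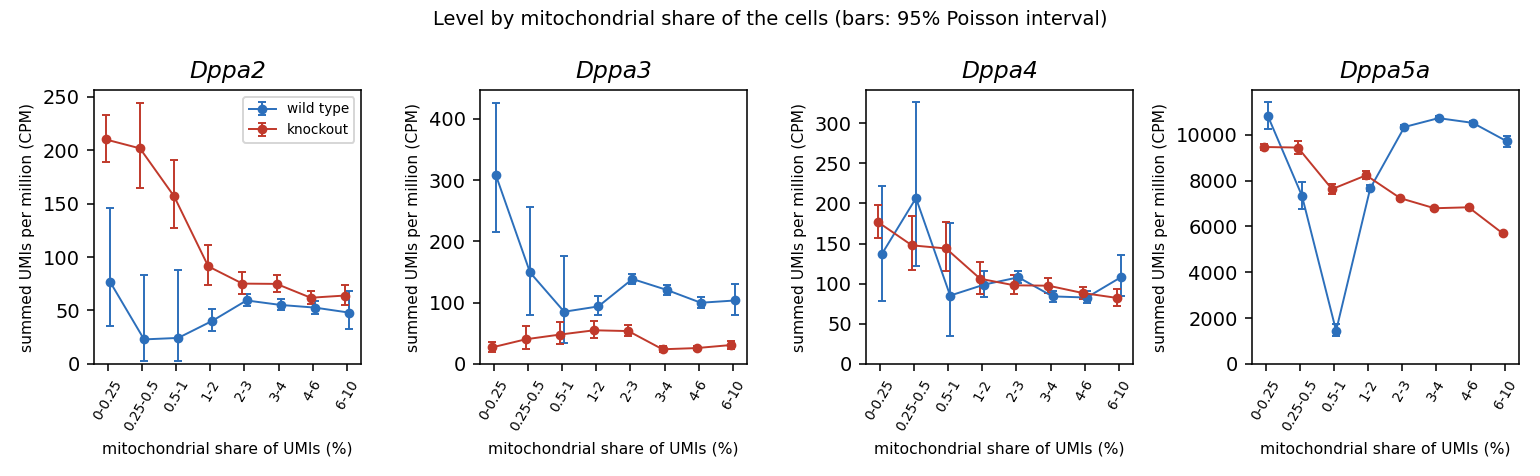
Level of each gene (y axis, CPM) in cells grouped by the mitochondrial share of their UMIs (x axis, percent), for wild type (blue) and knockout (red), with 95% Poisson intervals. Knockout Dppa2 stands at 210 CPM in the lowest range and at 64.0 in the highest, and knockout Dppa3 lies between 24.0 and 55.0 CPM throughout.

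Within the wild-type library the same split gave 45.4 against 54.7 CPM for Dppa2, with an interval of the log2 ratio from -1.18 to 0.51. Dppa4 was at 143 against 93.4 CPM, a log2 ratio of 0.64 (0.14 to 1.06), and Dppa3 at 196 against 119 CPM, a log2 ratio of 0.73 (0.31 to 1.10). Dppa5a was at 7073 against 10310 CPM. For the 13 cells under 0.5% it was at 9338 CPM, and its log2 ratio to the cells with 1 to 10% was -0.14 (-0.21 to -0.08) in place of -0.54. That of Dppa2 was then 0.04 (-1.03 to 0.82). Malat1, at 10324 CPM under 1% and 5920 with 1 to 10%, had the opposite order to that in the knockout. This order was not seen in the 9 wild-type cells below 0.25%, at 5401 CPM. The 4 cells from 0.25 to 0.5% were at 17194 CPM and the 3 from 0.5 to 1% at 10044 CPM.

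The lower level of Dppa3 was seen in most subsets that held cells of both libraries. Cells with 1 to 10% mitochondrial UMIs were split by depth, below 15000 UMIs, from 15000 to 30000, and 30000 or more. The Dppa3 log2 ratios were -1.68, -1.83 and -1.93, and those of Dppa5a were -0.34, -0.71 and -0.52. Dppa2 and Dppa4 differed from equality most in the shallow cells. There, Dppa2 was at 97.1 CPM in 114 knockout cells against 41.7 in 155 wild-type cells, giving a log2 ratio of 1.22, and Dppa4 had 0.70. In both deeper ranges the log2 ratio of Dppa2 was 0.24 and 0.35, and that of Dppa4 was -0.12 and 0.02.

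The cells had also been clustered without the 4 genes and Srf, and most clusters came mainly from 1 library. Cluster 2 held 21 knockout and 492 wild-type cells. In it Dppa3 was at 32.9 CPM in the knockout (19 UMIs) and 124 in the wild type, and Dppa5a was at 9910 and 11037 CPM. Cluster 3, led by the hypoxia and stress genes Adm and Ddit4, held 84 and 138 cells, with Dppa3 at 45.0 and 156 CPM and Dppa5a at 6799 and 10040 CPM. Cluster 5, with Actb among its leading genes, held 27 and 178 cells, with Dppa3 at 16.1 CPM from 5 UMIs against 100.1 CPM. Cluster 0 held 284 and 9 cells, with Dppa3 at 33.5 and 295 CPM. Cluster 7, which stayed unnamed, had no Dppa3 UMI in 9 knockout cells and 55 in 59 wild-type cells. Cluster 1 went the other way. Its 446 knockout cells had Dppa3 at 33.7 CPM and its 18 wild-type cells at 15.7 CPM from 8 UMIs, a log2 ratio of 1.02 (0.11 to 2.33).

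Cells with a raised share of chromosome 8 RNA were another subset that differed in Dppa3. This split, those by depth and the comparisons within clusters were chosen after seeing the data. Such a share, over 1.2 times the wild-type median, was found in 466 knockout and 85 wild-type cells. Those 85 wild-type cells had Dppa3 at 54.2 CPM (45.0 to 64.7), against 127 CPM (122 to 132) in the other 810. In the knockout the Dppa3 levels were 29.9 and 35.0 CPM. The log2 ratio of Dppa3 was therefore -0.86 (-1.16 to -0.54) among cells with the raised share and -1.86 (-2.02 to -1.71) among the others. The other members differed less between these wild-type cells, with Dppa2 at 45.3 against 55.6 CPM, Dppa4 at 92.0 against 94.2 CPM, and Dppa5a at 9094 against 10396 CPM.

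**Figure D3:**
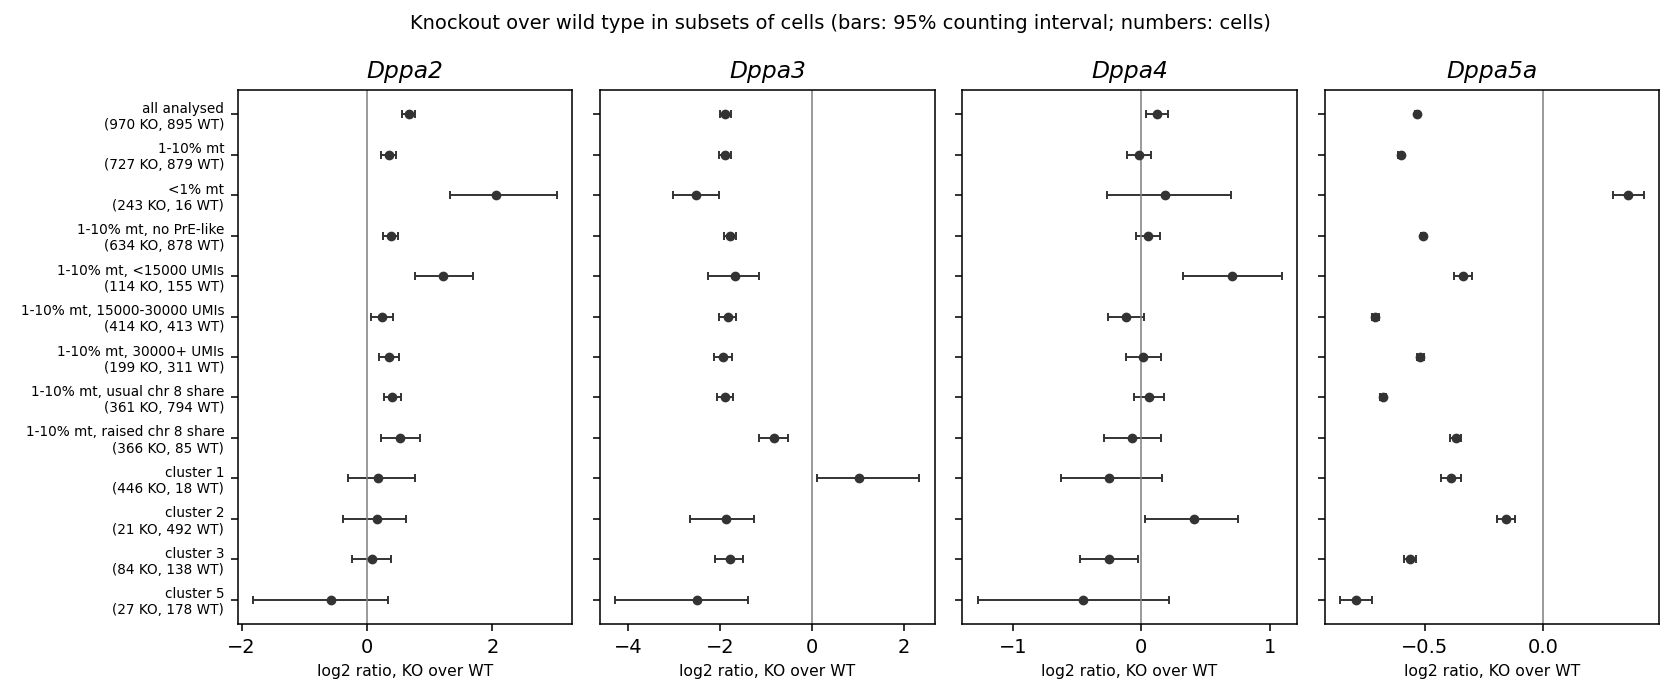
Log2 ratio of knockout over wild type (x axis) for each gene in subsets of the cells (rows, with the number of cells of each library), with 95% counting intervals; clusters 0, 4 and 7, with 9 or fewer cells of 1 library, are not drawn. Dppa3 lies between -2.53 and -0.84 in the subsets drawn except cluster 1, where it is 1.02, and Dppa2 reaches 2.06 in cells under 1% and 1.22 in the shallow cells.

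All 4 members were lower in the primitive endoderm-like cells of the knockout than in its other cells, and Dppa5a and Dppa3 differed by more than 2-fold. Primitive endoderm is the extraembryonic lineage marked by Gata6 and Dab2. This cluster held 99 knockout cells and 1 wild-type cell, and 93 of the 99 had 1 to 10% mitochondrial UMIs. Against 634 other knockout cells of that range, Dppa5a was at 3348 and 7268 CPM, a log2 ratio of -1.12 (-1.15 to -1.08). Dppa3 was at 14.8 and 34.5 CPM, a log2 ratio of -1.21 (-1.79 to -0.71). Dppa4 was at 59.0 and 96.9 CPM, a log2 ratio of -0.71 (-0.99 to -0.45), and Dppa2 at 55.8 and 71.2 CPM, a log2 ratio of -0.35 (-0.63 to -0.08). Past 1.5-fold, 3 of the 4 were lower, beside 12.1% of 6950 genes, and none was higher, beside 26.8%. With this cluster left out, Dppa3 in cells with 1 to 10% mitochondrial UMIs was at 34.5 CPM in the knockout against 119 in the wild type, and Dppa5a at 7268 and 10325 CPM.

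In the fibroblast-like cells, 25 knockout and 14 wild-type cells that should lack these genes, Dppa2, Dppa3 and Dppa4 had 0 to 2 UMIs in each library. Dppa5a had 160 and 69 UMIs, or 240.3 and 315 CPM. After thinning to 5000 UMIs, 87.5% of 24 knockout and 85.7% of 14 wild-type fibroblast-like cells had at least 1 Dppa5a UMI. A UMI of Dppa5a therefore did not mark a cell as pluripotent.

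Cells were next compared at equal depth, each thinned at random to 5000 UMIs. This left 720 knockout and 874 wild-type cells with 1 to 10% mitochondrial UMIs and 226 knockout cells under 1%. The 24 knockout and 5 wild-type cells shallower than 5000 UMIs were left out. Dppa3 was found in 31.9% of the wild-type cells (28.8 to 35.1%, Clopper-Pearson) and 11.1% of the knockout cells (8.91 to 13.6%) with 1 to 10%. Before thinning these shares were 56.4% and 33.1%. At least 3 thinned UMIs of Dppa3 were found in 56 wild-type cells (6.41%) and 6 knockout cells (0.833%). Among knockout cells under 1%, 12.4% had Dppa3. In thinned fibroblast-like cells Dppa3 was found in 0 of 24 and 0 of 14, with upper limits of 14.2% and 23.2%. Their median depths were 23629 and 10926 UMIs, beside 24434 and 26701 in the knockout and wild-type cells with 1 to 10%.

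Dppa2 was found in 21.2% (18.5 to 24.0%) of the wild-type and 33.1% (29.6 to 36.6%) of the knockout cells with 1 to 10%. In the knockout cells under 1% it was found in 61.5% (54.8 to 67.9%). Dppa4 was found in 33.0% (29.8 to 36.2%), 39.2% (35.6 to 42.8%) and 59.7% (53.0 to 66.2%) of the same 3 sets of cells. Before thinning Dppa2 was found in 63.7%, 74.8% and 79.0%, and Dppa4 in 79.6%, 81.0% and 78.2%, so the order of the Dppa4 shares depended on equal depth. Between the libraries the thinned Dppa4 shares also went against the summed levels with 1 to 10%, 92.4 CPM in the knockout against 93.4 in the wild type, and no order is read from them. In thinned fibroblast-like knockout cells Dppa2 was found in 4.17% and Dppa4 in 8.33%, or 1 and 2 of 24 cells. Dppa5a was found in every thinned cell of the 3 sets.

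The spread of Dppa3 from cell to cell was wide in both libraries. The Fano factor, the variance of the thinned UMIs over their mean, is 1 for counts that differ by sampling alone. For Dppa3 it was 2.29 in wild-type and 1.52 in knockout cells with 1 to 10%. Only 4 of 795 wild-type genes with a similar mean, within 1.5-fold, had a higher Fano factor, and the median of those genes was 1.08. In the knockout 38 of 2079 such genes were higher. Dppa3 was absent from 68.1% of the thinned wild-type cells, where a Poisson distribution of the same mean gives 56.1%. The richest wild-type cell had 10 thinned UMIs of Dppa3, and the highest 10% of the cells held 57.8% of them.

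Dppa2 and Dppa4 had Fano factors nearer to 1. Dppa2 had 1.07 in the wild type, beside a median of 1.04 over genes of similar mean, with 519 of 1622 higher, and 1.02 in the knockout, beside 1.08, with 958 of 1216 higher. Dppa4 had 1.21 in the wild type, beside a median of 1.06, and 80 of 999 genes of similar mean were higher. In the knockout it had 1.11, beside 1.09, and 417 of 934 were higher. In knockout cells under 1% they were 1.17 and 0.976.

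Dppa5a formed 1 broad peak in each library, set lower in the knockout. Its median was 51 thinned UMIs in the wild type, with the middle 80% of cells from 25 to 77. In the knockout the median was 32, with the middle 80% from 14 to 56. The squared coefficient of variation was 0.169 in the wild type and 0.264 in the knockout. With the primitive endoderm-like cells left out the knockout value was 0.215. Knockout cells under 1% had a median of 46 and a squared coefficient of variation of 0.159. The Fano factor of Dppa5a was also high for its mean. In wild-type cells with 1 to 10% it was 8.62, beside a median of 2.28 over genes of similar mean, with 1 of 16 higher. In the knockout it was 8.93, beside 2.06, with 3 of 42 higher.

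**Figure D4:**
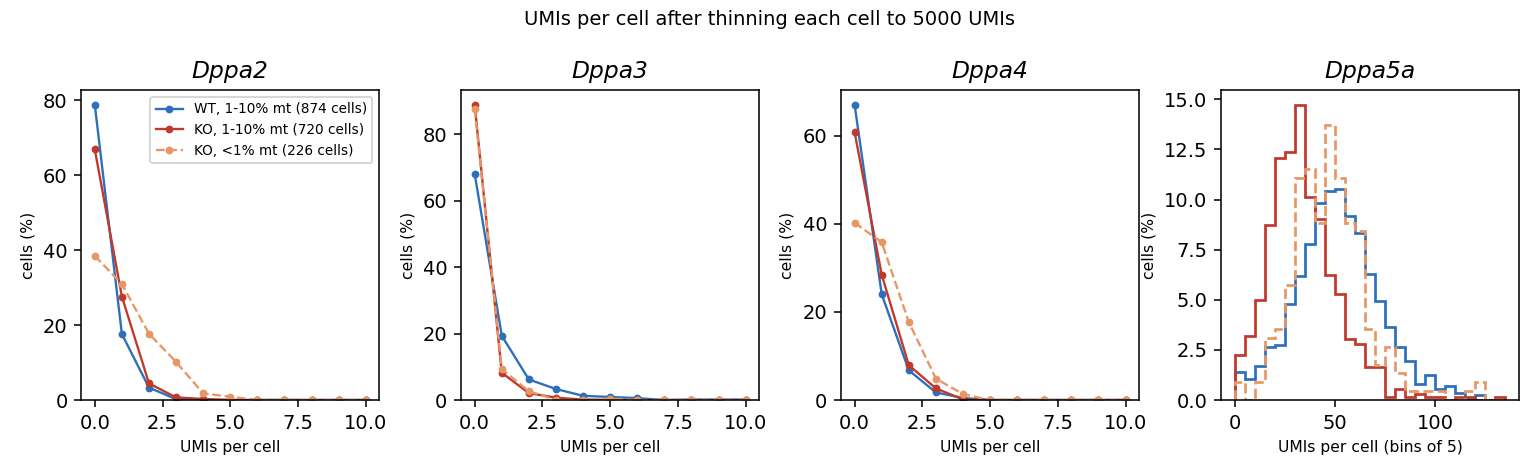
Share of cells (y axis, percent) by UMIs of each gene per cell after thinning to 5000 UMIs (x axis), for wild-type (blue) and knockout (red) cells with 1 to 10% mitochondrial UMIs and knockout cells under 1% (dashed orange). The Dppa5a peak lies lower in the red cells, with a median of 32 against 51, and the dashed line shows fewer cells at 0 UMIs for Dppa2 and Dppa4.

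Correlations between the members over the cells of a library were low. Over the thinned cells of a library with 1 to 10%, Pearson's r on log2(UMIs + 1) lay between -0.04 and 0.17 for the 6 pairs. For Dppa2 with Dppa4, whose proteins bind each other and whose genes are neighbours, r was 0.06 in the wild type and 0.01 in the knockout. Of the wild-type cells with Dppa2, 34.6% also had Dppa4, against 32.5% of those without. In the knockout these shares were 41.2% and 38.2%. The highest r was 0.17 for Dppa4 with Dppa5a in the knockout, and it was 0.08 in the wild type. For Dppa3 with Dppa5a r was 0.14 in the wild type and 0.11 in the knockout. Cells of 1 library share its preparation, and counts this low hold r near 0. These values are thus a description of the libraries, and independence of the members cannot be read from them.

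The pairs in the knockout cells under 1% had r between -0.05 and 0.02. In the 99 primitive endoderm-like cells r was 0.34 for Dppa2 with Dppa4, the highest of the 6 pairs there. The mean level of both genes was low in those cells, with 0.343 and 0.364 thinned UMIs per cell.

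**Figure D5:**
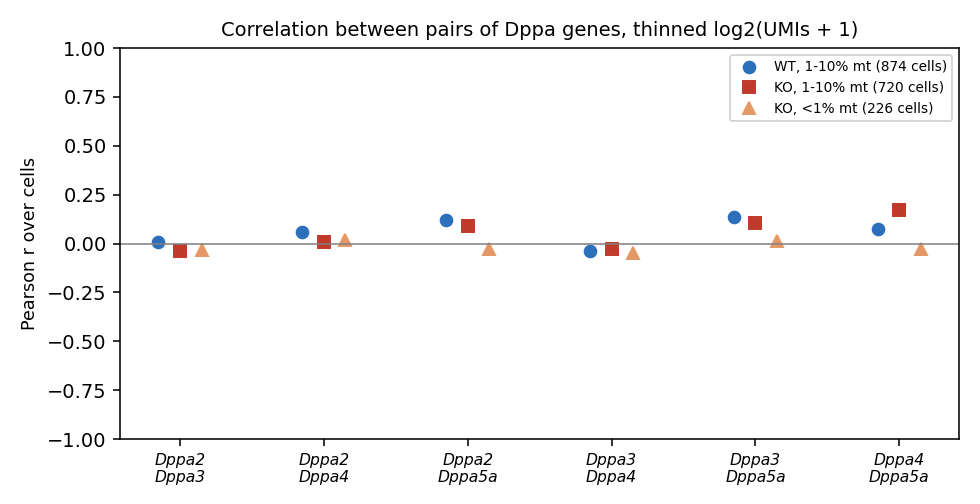
Pearson's r over thinned cells (y axis, from -1 to 1) for the 6 pairs of genes (x axis), in wild-type (blue) and knockout (red) cells with 1 to 10% mitochondrial UMIs and in knockout cells under 1% (orange). All points lie between -0.05 and 0.17.

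The genes whose cell-to-cell pattern was most like that of each member were then sought among 1127 or 1128 genes that averaged 0.5 or more thinned UMIs in both libraries, by the lower of the r values in the 2 libraries. For Dppa3, Ifitm1 was the one gene at or above 0.2, with r of 0.34 in the wild type and 0.25 in the knockout. Ifitm1 encodes an interferon-inducible membrane protein. Wild-type cells with Dppa3 had a mean of 2.54 thinned Ifitm1 UMIs and cells without it 1.28. In the knockout these means were 1.34 and 0.453. Ifitm1 itself was at 116 CPM in the knockout against 328 in the wild type, a log2 ratio of -1.503 (-1.57 to -1.44).

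For Dppa5a, 8 genes reached 0.2 in both libraries. The 5 highest were Chchd10, a mitochondrial intermembrane space protein (0.46 in the knockout against 0.34 in the wild type), Mylpf, a myosin light chain (0.33 and 0.28), the pluripotency factor Pou5f1 (0.34 and 0.26), Ptma, which encodes prothymosin (0.49 and 0.26), and the chaperone gene Hsp90aa1 (0.39 and 0.25). Without the primitive endoderm-like cells the knockout values were 0.27 for Chchd10, 0.20 for Mylpf, 0.22 for Pou5f1, 0.37 for Ptma and 0.31 for Hsp90aa1. In the knockout, r of Dppa5a with the endoderm gene Dab2 was -0.55, and it was -0.37 without those cells. In the wild type it was -0.23 both with and without the primitive endoderm-like cluster. Dab2 was named outside the rule for naming genes and had the most negative knockout r of the 12 listed primitive endoderm markers. The others ranged from -0.44 for Col4a1 to -0.25 for Sox17. For Dppa2 and Dppa4 no gene reached 0.2 in both libraries, with highest lower values of 0.10 for Dppa2 with Dnajb6 and 0.12 for Dppa4 with Hspa8.

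The genes on which Dppa2 and Dppa4 are known to act in the 2-cell program had few counted UMIs. Sequence shared among these genes was not searched, and how shared reads were counted is not given. Silence can therefore not be read from the counts. The 14 listed genes found in the matrix, among them Zscan4, Tcstv and Usp17l genes, had 24 UMIs in all knockout cells and 2 in all wild-type cells. A single knockout cell held 21 of the 24. It had 24162 UMIs, 0.257% of them mitochondrial, with 12 UMIs of Dppa2, 1 of Dppa4, 3 of Dppa3 and 562 of Dppa5a. Of 16 germline genes that promoter methylation silences, Mael and Sycp3 passed the filter on low values, at 9.45 against 16.3 CPM and 9.98 against 15.9 CPM. Both were lower past 1.5-fold, beside 2.6% of all genes that passed. The summed UMIs of all 16 were 1073 in the knockout against 1256 in the wild type, 51.2 and 54.1 CPM. The remaining listed genes together were thus higher in the knockout, and the near-equal sum hides opposite directions.

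Around Dppa3, the DNA methylation genes were nearer to equal than Dppa3 itself. Of 11 listed genes 10 passed the filter, 4 with a lower and 6 with a higher level in the knockout, and their median log2 ratio was 0.07, the same as over all genes. In cells with 1 to 10% mitochondrial UMIs 1 was lower and 9 were higher, with a median of 0.23 beside 0.09 over all genes. With each cell weighed alike the median was -0.17, so the direction of the list depended on which cells carried weight. The de novo methyltransferase Dnmt3a was the one past 1.5-fold, at 96.6 CPM against 46.7, a log2 ratio of 1.05 (0.94 to 1.16). Its cofactor Dnmt3l was at 91.2 against 119.6 CPM, a log2 ratio of -0.39. Hells, a chromatin remodeller, and Tdg, a DNA glycosylase, had 0.34 and 0.31. Uhrf1, the factor that Dppa3 limits, was at 88.5 and 91.4 CPM, with an interval of the log2 ratio from -0.14 to 0.04. Of 12 listed Polycomb and Setdb1-pathway repressors of germline genes 11 passed, 3 lower and 8 higher with a median of 0.12, none of them past 1.5-fold. Their median was 0.19 in cells with 1 to 10% and 0.0019 with each cell weighed alike. The 4 farthest from equality were Rnf2 (0.41), Trim28 (0.29), Cbx3 (-0.25) and Atf7ip (0.23).

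Among pluripotency genes Dppa3 stood below the range of the listed factors. Of 10 naive-state genes 9 passed, 6 lower and 3 higher, with a median log2 ratio of -0.28. That median was -0.16 in cells with 1 to 10%, -0.06 in those without the primitive endoderm-like cells and -0.02 in cells with the usual chromosome 8 share. Tfcp2l1 (-0.61), Klf4 (-0.54), Tcl1 (-0.54) and Zfp42 (0.51) were farthest from equality, and Tfcp2l1 was the one past 1.5-fold. The 7 core factors, 4 lower and 3 higher, had a median of -0.08. In cells with 1 to 10% 5 were lower and 2 higher with a median of -0.07, and without the primitive endoderm-like cells the median was 0.09. Nanog was farthest from equality (-0.46, and -0.70 in cells with 1 to 10%), followed by Sox2 (-0.22), Tdgf1 (-0.16) and Sall4 (0.13). Of 8 primed-state genes 4 passed. Dnmt3a (1.05) and Dnmt3b (0.17) were higher, and Lef1 (-0.88) and Pou3f1 (-0.08) were lower. Their median of 0.04 was 0.16 in cells with 1 to 10% and -0.13 with each cell weighed alike.

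The genes near the members were looked up after the members' values had been seen. On the genome (GRCm38 positions from GENCODE M21), Dppa4 at chr16:48283733-48294237 and Dppa2 at chr16:48303908-48319723 lie on the plus strand, 9670 bases apart. Morc1, the next gene with at least 10 CPM within 200 kb, was at 59.8 CPM in the knockout against 75.7 in the wild type, a log2 ratio of -0.34, and of -0.57 in cells with 1 to 10%. In knockout cells under 1% mitochondrial UMIs Morc1 was at 118 CPM against 50.7 in the cells with 1 to 10%, a log2 ratio of 1.22 (1.04 to 1.403). Dppa2 and Dppa4 were also higher in those cells, beside 17.4% of all genes tested that were higher past 1.5-fold. Nanog, near Dppa3, and Ooep, near Dppa5a, were higher there as well, with log2 ratios of 1.25 and 1.12. Gdf3, also near Dppa3, was lower there, at -0.60. Dppa3, at chr6:122626410-122630272 on the plus strand, lies near Gdf3, Nanog, Slc2a3 and Rimklb. Their log2 ratios were -0.09, -0.46, 0.00 and -0.42 over all cells and -0.02, -0.70, 0.19 and -0.41 in cells with 1 to 10%, all nearer to 0 than the -1.89 of Dppa3 in both. The median over 295 genes of chromosome 6 was 0.07.

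Dppa5a is a short gene at chr9:78367052-78368177 on the minus strand. Its nearest measured neighbour, Ooep, 7932 bases away, encodes an oocyte KH-domain protein. Ooep was at 91.2 CPM in the knockout against 189 in the wild type, a log2 ratio of -1.06 (-1.13 to -0.98). In cells with 1 to 10% the Ooep ratio was -1.25 (-1.34 to -1.17), beside -0.60 for Dppa5a. The other neighbours within 200 kb were Gsta4, Mto1 and Eef1a1. Over all cells their log2 ratios were -0.31, 0.31 and -0.16, beside -0.53 for Dppa5a. In cells with 1 to 10% they were -0.61, 0.33 and -0.24, so Gsta4 was there about as far from 0 as Dppa5a. The 7 listed Dppa and KH-domain relatives in the matrix summed to 101.6 and 200.3 CPM, and Ooep alone passed the filter on low values. Of the others, named outside the rule for naming genes, Khdc3 was at 6.73 and 6.54 CPM, Tdrkh at 3.68 and 4.39 CPM, and Dppa1 had no UMI in either library.

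Stretches shared with other transcripts limit 2 of the members. Only exact matches were searched, not identity over whole transcripts. Of 441 runs of 60 bases in the last 500 bases of the Dppa5a transcript, 50 (11.3%) also occur in transcripts of Pigp, a gene of the matrix, and of Gm6798. Dppa5b, Dppa5c and Gm15310 share 45 runs each, Gm6083 27, Gm5250 6, and Gm10112, also in the matrix, 2. For Dppa3, 26 runs (5.90%) occur in Dppa3-ps, 11 in Gm15620 and 8 in Gm47576. The share of runs found in any of these transcripts was not computed. How reads shared with such transcripts were counted is not given in the sources used here, so the levels of Dppa5a and Dppa3 are uncertain. Dppa2 and Dppa4 shared no run.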

How the data were processed

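Single-cell RNA libraries of 1 knockout and 1 wild-type culture were analysed. The deposited values are whole-number UMI counts per gene and cell, not normalised, per the file headers. The submitters' processing notes name Cell Ranger 2.0.0, Seurat 3.1.1 and the build mm10. The cell-calling rule is not given in the sources used here. The filters asked for at least 1000 genes and no more than 10% mitochondrial counts and removed 76 knockout and 35 wild-type cells. Scrublet in scanpy 1.11.5 called 2 and 10 doublets, which were left out, as were 25 and 14 fibroblast-like cells. Clustering used 2000 variable genes without the 4 members and Srf, 30 components, 15 neighbours and Leiden resolution 0.5. Naming a cluster needed 3 or more of a list's markers in its 50 leading genes. A cluster of 9 knockout and 59 wild-type cells had 8 macrophage markers among its 50 leading genes and so met this rule. It was led by macrophage genes of 10 cells. As an exception to the rule it was left unnamed, and it was kept. Counts were summed per library. Intervals are exact, Poisson for levels, conditional for ratios and Clopper-Pearson for shares. Functions were tested on simulated data. Beside the members and Srf, up to 5 partners per member and up to 4 genes per list, those farthest from equality, were named by rule. Lists with fewer than 3 genes past the filter are given by their summed UMIs. Alternatives changed the scaling, cell filters, thinning, mitochondrial limit and filter on low values, and 5 were added after seeing the data. Members, lists and rules were chosen with earlier results of these data known. Of the matrix genes, 98.7% matched GENCODE M21 by identifier. The bulk samples that the design text mentions were not analysed here.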

Additional observations from a re-analysis of the deposited data

Results flagged for a closer look

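Dppa2 and Dppa5a had opposite directions in the 2 libraries when cells under 1% were set against cells with 1 to 10% mitochondrial UMIs. The log2 ratio of Dppa2 was 1.504 for knockout cells and -0.21 for wild-type cells, and that of Dppa5a was 0.41 and -0.54 in that order. The difference between the libraries was not tested, since each genotype is 1 library and the wild-type value rests on 16 cells. For Dppa2 the wild-type interval, -1.18 to 0.51, includes 0. Both wild-type values moved when 3 cells with 0.5 to 1% were left out, a choice made after seeing the data. The 13 cells under 0.5% gave 0.04 for Dppa2, no longer opposite to the knockout, and -0.14 (-0.21 to -0.08) for Dppa5a.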

How the results depend on the processing

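No paired analysis was possible because a genotype is a single library here, and none could be left out. Of 227 values under alternative settings 171 stayed within the counting interval of the reported value, or within 0.05 for a correlation and 0.1 for a Fano factor or list median on the log2 scale, or within 1.5 times for a count. The others lay outside, and 18 of the 227 had the opposite sign to the reported value. The log2 ratio of Dppa3 stayed within its counting interval in all 15 settings run, from -1.97 to -1.79. That of Dppa2 was 0.997 with each cell weighed alike and 0.34 in cells with 1 to 10% mitochondrial UMIs. That of Dppa4 was 0.31 and -0.015 under these settings. For Dppa5a it was -0.60 with TMM, -0.61 with median of ratios, -0.55 without mitochondrial and ribosomal protein genes, -0.46 with each cell weighed alike, -0.56 with the fibroblast-like cells kept, -0.44 without the primitive endoderm-like cells, -0.60 with 1 to 10% mitochondrial UMIs and -0.55 with at least 2000 genes. In settings chosen after seeing the data, the usual chromosome 8 share gave 0.84, 0.21 and -0.58 for Dppa2, Dppa4 and Dppa5a, at least 15000 UMIs gave 0.44, -0.000338 and -0.58, and 1 to 10% without the primitive endoderm-like cells gave 0.38 for Dppa2 and -0.51 for Dppa5a. Genes past 1.5-fold numbered 670 lower and 1016 higher at a mean of at least 1 CPM, and 263 lower with median of ratios. The difference in the share of cells, knockout minus wild type in percentage points, was 18.5 for Dppa2, and 13.2 when thinned to 7663 UMIs, 7.93 at 2 or more UMIs and 12.3 unthinned. For Dppa3 it was -20.9, and -10.1 at 2 or more UMIs and -26.2 unthinned. For Dppa4 it was 10.9, and 0.213, 4.86 and 0.644 in the same 3 settings as for Dppa2. For Dppa5a it was 0.112, and 0.674 at 2 or more UMIs. Thinning to 7663 UMIs gave log2 Fano ratios of -1.01 for Dppa3 and 0.10 for Dppa4, and leaving out the primitive endoderm-like cells gave -0.086 for Dppa5a. Within the knockout, the ratio of Dppa2 by mitochondrial share was 1.30 with the limit at 2%, and that of Dppa5a 0.47 with it at 0.5%. Unthinned, the share of knockout cells under 1% minus that with 1 to 10% was 4.18 points for Dppa2, -10.9 for Dppa3 and -2.83 for Dppa4, against 28.4, 1.28 and 20.6 after thinning. The causes of these moves were not tested. Wild-type values under 1% rest on 16 cells, with 13 UMIs of Dppa2.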

Other observations

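The cells above 10% mitochondrial UMIs were 71 in the knockout library and 33 in the wild-type library. They entered only the alternative setting that had no limit on mitochondrial counts. Dppa3 was at 13.7 CPM there in the knockout (8 UMIs) and at 42.0 CPM in the wild type (11 UMIs). Dppa5a was at 6518 and 10220 CPM. Dppa4 was at 89.2 and 164 CPM from 52 and 43 UMIs, and Dppa2 at 54.9 and 57.3 CPM from 32 and 15 UMIs.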
